A study of Mus musculus with 35 samples.

Results

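The 10 genes described here encode 6 inhibitors of cyclin-dependent kinases, Cdkn1a, Cdkn1b, Cdkn1c, Cdkn2a, Cdkn2b and Cdkn2c, and 4 cyclins of the G1 phase, Ccnd1, Ccnd2, Ccnd3 and Ccne1. They were chosen by name, as the probe sets annotated with one of these symbols alone, and all 10 were found among the 18194 genes on the array that have such a probe set. The cells were primary mouse embryonic fibroblasts (MEFs), a mixed culture grown out of disaggregated embryos, taken from C57BL6/J embryos at day 15.5 and expanded for 2 passages per the sample labels (the study's methods state the embryonic age and the passages differently). The head and fetal liver had been removed before plating. A day after plating, the medium was replaced either by medium holding methyl methanesulfonate (MMS) at 40 µg/mL or by fresh medium alone, and RNA was collected 1, 8, 24 or 72 h later. MMS is an alkylating agent that methylates DNA bases. The groups were MMS at 1, 8, 24 and 72 h, control at 1, 8, 24 and 72 h, and control at 0 h, with 4 arrays each except for MMS at 72 h, where 3 arrays were analysed here. Every group thus had a medium change except the 0 h control, so a comparison with 0 h holds time and medium change together.

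D-type cyclins bind Cdk4 and Cdk6 and start the phosphorylation of the retinoblastoma protein, and cyclin E with Cdk2 completes it, which frees E2F factors and lets a cell leave G1 for S phase. Mitogens in serum keep the D cyclin mRNAs up in fibroblasts. The inhibitors of the INK4 family (products of Cdkn2a, Cdkn2b and Cdkn2c) bind Cdk4 and Cdk6, whereas those of the CIP/KIP family (p21 from Cdkn1a, p27 from Cdkn1b, p57 from Cdkn1c) bind cyclin-kinase complexes, and p21 is the classical p53 target through which DNA damage stops the cell cycle.

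RefSeq (GRCm38.p6) promoter entries, each cut here to the 250 bases before an annotated start, were matched by symbol for 7 of the 10 genes, with 11 starts in all. Those shown belong to genes with clear changes below and carry elements known for them or found in them: both starts of Cdkn1a, on chr17:29090729-29090978 and chr17:29093519-29093768 (plus strand), the start of Cdkn2b on chr4:89311033-89311282 (minus strand) and the upstream start of Ccnd3, the only D cyclin with an entry used here, on chr17:47504801-47505050 (plus strand). Capitals mark a p53 response element, a GC box (GGGCGG on either strand) or a cyclic AMP response element half-site (TGACG on either strand).
Cdkn1a, start 1: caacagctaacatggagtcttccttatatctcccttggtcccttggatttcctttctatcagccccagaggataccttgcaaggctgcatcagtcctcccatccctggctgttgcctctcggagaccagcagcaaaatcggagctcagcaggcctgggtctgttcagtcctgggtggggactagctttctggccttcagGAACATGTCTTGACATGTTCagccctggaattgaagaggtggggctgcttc
Cdkn1a, start 2: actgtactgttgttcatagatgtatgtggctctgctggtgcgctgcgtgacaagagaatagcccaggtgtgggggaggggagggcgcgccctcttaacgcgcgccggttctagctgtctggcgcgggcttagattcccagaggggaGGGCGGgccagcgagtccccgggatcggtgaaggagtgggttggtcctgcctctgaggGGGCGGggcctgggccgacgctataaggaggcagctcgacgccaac
Cdkn2b: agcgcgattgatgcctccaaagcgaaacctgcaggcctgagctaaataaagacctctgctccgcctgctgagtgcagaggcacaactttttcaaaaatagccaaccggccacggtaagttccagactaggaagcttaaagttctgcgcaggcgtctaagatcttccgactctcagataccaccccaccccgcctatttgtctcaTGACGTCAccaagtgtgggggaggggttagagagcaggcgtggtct
Ccnd3, start 1: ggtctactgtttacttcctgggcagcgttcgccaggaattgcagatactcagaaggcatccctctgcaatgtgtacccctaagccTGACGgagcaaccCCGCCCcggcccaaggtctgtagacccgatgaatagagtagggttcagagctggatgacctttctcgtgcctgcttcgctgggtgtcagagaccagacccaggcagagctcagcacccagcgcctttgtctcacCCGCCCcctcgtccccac

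The capitals before the first Cdkn1a start match the p53 response element over 20 letters with no gap between its half-sites and at most 1 letter off, a search added after the sequence had been seen. The match began 51 bases before the start, and 0.0761% of 32851 mouse promoters of this length held one; of the 11 starts of the 10 genes it was found at this one alone. The second Cdkn1a start had 2 GC boxes instead, a motif present in 32.7% of all promoters and at 7 of the 11 starts. The capitals in Cdkn2b are the full palindromic cyclic AMP response element (TGACGTCA, 2 overlapping half-sites), which began 46 bases before its start and was present in 1.55% of all promoters, and the half-site alone was present in 17.8%. The upstream Ccnd3 start had 1 half-site and 2 GC boxes. The E2F words TTTCGCGC and TTTGGCGC (0.654% of all promoters), the AP-1 word TGACTCA (4.46%) and the E-box CACGTG (6.02%), searched on both strands, were found at none of the 11 starts. Other forms of the E2F site were not searched for, among them TTTCCCGC, which is present at 1 of the Cdkn2a starts. These are matches of letters in a window, and the arrays do not measure binding there.

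The values are RMA-normalised log2 signals, so a difference of 1 is a 2-fold difference in signal, and signals of different genes are not compared. Of the 23 probe sets of the 10 genes, the brightest of each gene on average was used and the others served as a check. Cdkn1c, Cdkn2a, Cdkn2b and Cdkn2c had 1 probe set each and so no such check. The other Cdkn1b probe set was too low to be tested alone (group means of 4.17 at most). The test took genes whose mean reached 4.40 in some group, which left 14135, and all 10 genes passed in all 9 groups. Differences are from 1 limma model of the 9 group means and are called at a Benjamini-Hochberg adjusted p under 0.05 over all genes tested. The labels name the replicates as biological.

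Other features of the arrays set some of them apart. All 14 fibroblast markers were above the limit on all arrays. Among them the collagen genes were lower in the 8 h controls than at 0 h. Col1a1 was at 11.14 against 13.89, Col1a2 at 13.84 against 14.35, Col3a1 at 11.37 against 13.20 and Col5a1 at 11.98 against 13.10. The mean of all 14 was 11.72 to 11.78 against 11.85 to 12.00. Of 15 macrophage markers, the mean was 7.46 to 7.64 on the MMS 8 h arrays and 8.11 to 8.25 on the control 8 h arrays, against 4.43 to 6.02 on all others, and the Y-linked gene Eif2s3y averaged 6.22 and 6.69 in the same 8 h groups against 4.46 to 4.88 elsewhere. The 8 h arrays of both treatments thus lay above the others in the macrophage markers, which cannot be told apart from time in the comparisons with 0 h. The same holds for the changes of the MMS effect from 1 to 8 h and from 8 to 24 h given below. The highest mean among the other arrays was that of control 0 h replicate 3 (6.02, with 13 of 15 markers above the limit), on which the mean of 4 Y-linked and X inactivation markers, 6.37, was also within the range of the 8 h arrays (5.92 to 6.86). The macrophage mean was 4.84 to 5.38 on MMS 24 h arrays against 4.43 to 4.51 on control 24 h arrays, with Cd68 at 8.40 against 4.95 and Cd14 at 8.28 against 5.54, and the part of these transcripts in the MMS differences at 24 h was not tested. Replicate 3 of MMS at 1, 24 and 72 h and of control at 0 h held intestinal transcripts (25 markers, mean 6.99, 8.74, 5.84 and 10.60, against 4.36 to 5.60 on the other arrays). The highest of those others, control 1 h replicate 3 (5.60, 20 markers above the limit), lay close to MMS 72 h replicate 3 (21 markers). Control 24 h replicate 4 (5.32, 19 markers) and control 1 h replicate 4 (5.21, 18 markers) came next. The mean of 16 skeletal muscle markers was 5.32 to 5.47 on the 8 h arrays against 4.63 to 5.00 on the others, with Acta1, an actin of muscle, at 8.55 to 12.91 over the groups, and the mean of 8 endothelial markers was 4.19 to 4.73.

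None of the 10 genes was called 1 h after MMS by limma, where 2 had an unadjusted p under 0.05 (Cdkn1a and Cdkn2a) and 0.389% of all genes tested were called. At 8 h, 7 of 10 were called, 1 higher (Cdkn1a) and 6 lower (Cdkn1b, Cdkn1c, Cdkn2c, Ccnd1, Ccnd2 and Ccnd3), against 53.7% of all genes (28.7% higher and 25% lower). At 24 h, 7 of 10 were called, 2 higher (Cdkn1a and Cdkn2c) and 5 lower (Cdkn2b, Ccnd1, Ccnd2, Ccnd3 and Ccne1), against 44.5% of all genes (25% higher and 19.4% lower). At 72 h, 6 of 10 were called, 2 higher (Cdkn1a and Cdkn2b) and 4 lower (Cdkn1b, Cdkn1c, Cdkn2c and Ccne1), against 20.5% of all genes (10.1% higher and 10.4% lower). The shares at 8 and 24 h lay near those of all genes, so the counts there say little about these 10 genes, and the description rests on the single genes. Their median log2 difference was 0.12, -0.34, -0.22 and -0.08 at 1, 8, 24 and 72 h, beside -0.003, 0.06, 0.01 and -0.01 over all genes tested.

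**Figure D1:**
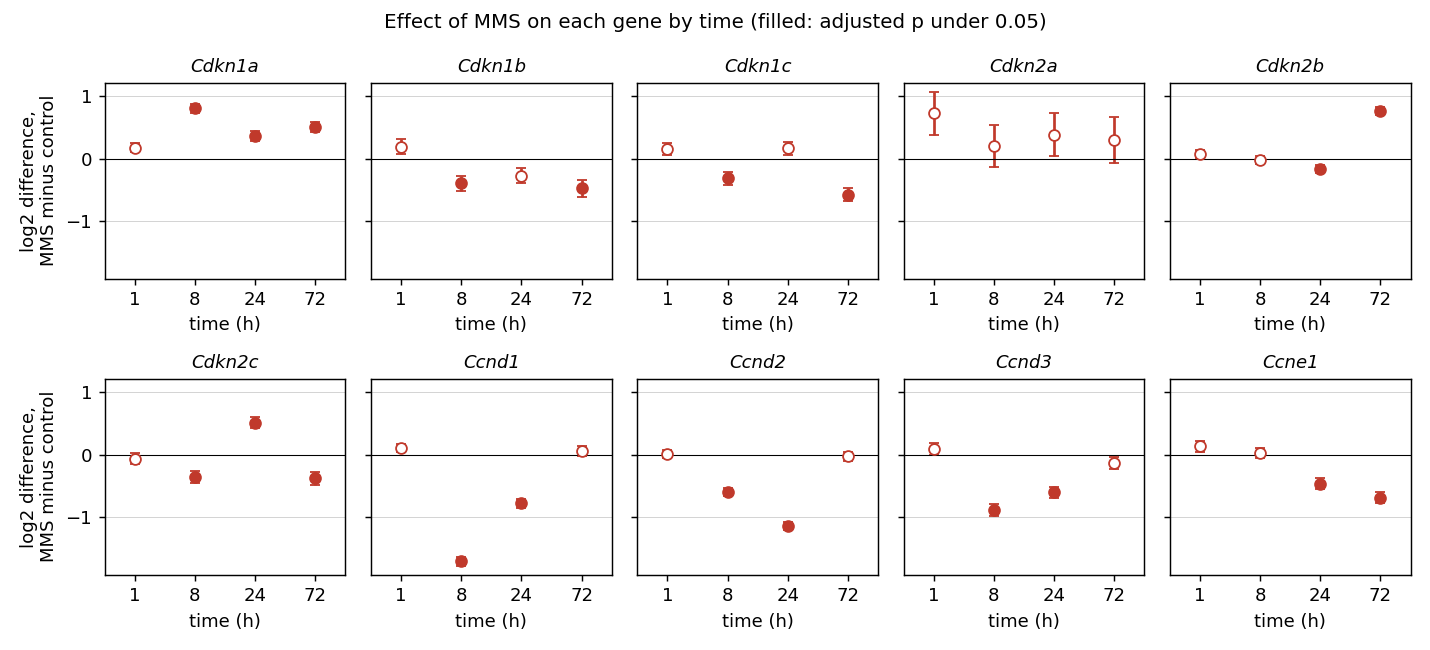
Log2 difference in signal, MMS minus control (vertical axis), for each of the 10 genes at 1, 8, 24 and 72 h (horizontal axis, evenly spaced). Points are differences from the limma model, bars are 1 SE, and filled points passed an adjusted p under 0.05. Cdkn1a lay above 0 at every time, the D cyclins lay below 0 at 8 and 24 h and none of them was called at 72 h, Ccne1 fell at 24 and 72 h, and Cdkn2b rose at 72 h.

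On the probe sets used, the D cyclin mRNAs had the largest differences after MMS of the 10 genes. Each fell at 8 and 24 h, while none was called at 72 h. Ccnd1, the cyclin through which mitogen signals most directly reach Cdk4 in fibroblasts, read 9.76, 9.62, 9.66 and 9.72 on the MMS 8 h arrays, against 11.37, 11.41, 11.42 and 11.37 on the control 8 h arrays. All MMS arrays lay far below all controls, a difference of -1.70 ± 0.07 (SE) or 3.26-fold lower (adjusted p = 1.29e-18), which was larger in size than that of 98.2% of all genes tested. At 24 h Ccnd1 read 11.16, 11.17, 10.91 and 11.15 after MMS, against 11.98, 11.79, 11.81 and 11.90 in controls. The groups were still apart, but the difference was now 1.71-fold (-0.78 ± 0.07, adjusted p = 1.38e-10). At 72 h the values were 12.24, 12.02 and 11.96 after MMS, against 11.99, 11.98, 12.02 and 12.05 in controls. These overlapped, with a difference of 0.06 and a 95% interval of -0.10 to 0.22. The effect of MMS thus changed by -1.81 from 1 to 8 h and by 0.93 from 8 to 24 h, and both changes were called (adjusted p = 4.47e-15 and 6.52e-09). Such a change was called for 6 of the 10 genes over each of the 3 steps in time, against 41.3%, 45.6% and 29% of all genes in the order of time. On the other 2 Ccnd1 probe sets the differences were -1.85 and -1.52 for 8 h, with -0.50 and -0.68 for 24 h.

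Ccnd2, another D cyclin that serves the same kinases, had its largest difference at 24 h. Its signal at 8 h was 12.17, 12.34, 12.13 and 12.11 after MMS, against 12.83, 12.64, 12.82 and 12.85 in controls. All MMS arrays lay below all controls, 1.51-fold (-0.60 ± 0.07, adjusted p = 5.09e-09). At 24 h it was 12.32, 12.36, 12.61 and 12.34 after MMS, against 13.60, 13.55, 13.52 and 13.51 in controls. The gap had widened to 2.20-fold (-1.14 ± 0.07, adjusted p = 7.38e-15), and the change of the effect from 8 to 24 h was called (-0.54 ± 0.09, adjusted p = 1.86e-05). At 72 h the signals were 13.84, 13.69 and 13.54 after MMS, against 13.74, 13.69, 13.70 and 13.72 in controls, with no separation (-0.02, 95% interval -0.17 to 0.12). All 6 other Ccnd2 probe sets were called lower at both 8 h (-0.44 to -0.72) and 24 h (-1.09 to -1.57), and 1 of them, with the lowest signal of the 7, did not call the change between the 2 times (-0.38, adjusted p = 0.243).

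Ccnd3, the D cyclin with the widest expression in adult tissues, was also lower at 8 and 24 h. It read 8.84, 8.50, 8.56 and 8.63 in MMS cells at 8 h, against 9.64, 9.42, 9.47 and 9.54 in controls, and 9.67, 9.45, 9.37 and 9.45 in MMS cells at 24 h, against 10.29, 10.05, 10.00 and 10.02 in controls. The groups did not overlap at either time. The difference was 1.84-fold at 8 h (-0.88 ± 0.10, adjusted p = 3.26e-09) and 1.52-fold at 24 h (-0.60 ± 0.10, adjusted p = 4.27e-06), and the change of the effect between these times (0.28) was not called (adjusted p = 0.0925), although it was with the replicate block (adjusted p = 0.0418), with array weights (0.32, adjusted p = 0.017), without the 4 arrays with intestinal transcripts (0.32, adjusted p = 0.0315), or without MMS 8 h replicate 1 (0.35, adjusted p = 0.0374) or control 24 h replicate 1 (0.35, adjusted p = 0.039). At 72 h the MMS arrays spread widely, from 9.93 to 10.47, against 10.25 to 10.32 in controls, and the difference of -0.13 ± 0.10 was not called (adjusted p = 0.445). Without MMS 72 h replicate 1, the high array, it was -0.29 and called (adjusted p = 0.0443), and with array weights it was -0.23 and called (adjusted p = 0.0029). A second Ccnd3 probe set with low signal showed no called change at any time (-0.04 at 8 h, -0.14 at 24 h).

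Ccne1, the cyclin E that activates Cdk2 at the end of G1, took a different course. At 8 h it lay between 8.94 and 9.10 on the MMS arrays, against 8.90 to 9.02 on the controls, and these overlapped. At 24 h it was 8.39, 8.62, 8.42 and 8.54 after MMS, against 9.12, 8.90, 8.95 and 8.84 in controls. At 72 h it was 7.94, 7.75 and 7.96 after MMS, against 8.58, 8.47, 8.63 and 8.59 in controls. MMS arrays lay below all controls at both later times, 1.38-fold at 24 h (-0.46 ± 0.09, adjusted p = 4.88e-05) and 1.61-fold at 72 h (-0.69 ± 0.09, adjusted p = 1.34e-06). The effect had changed between 8 and 24 h (-0.49 ± 0.12, adjusted p = 0.0015), and from 24 to 72 h the further change of -0.22 ± 0.13 was not called. Ccne1 was therefore still lower at 72 h, when none of the D cyclins was called. On a second Ccne1 probe set the differences were -0.60 at 24 h and -0.66 at 72 h.

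**Figure D2:**
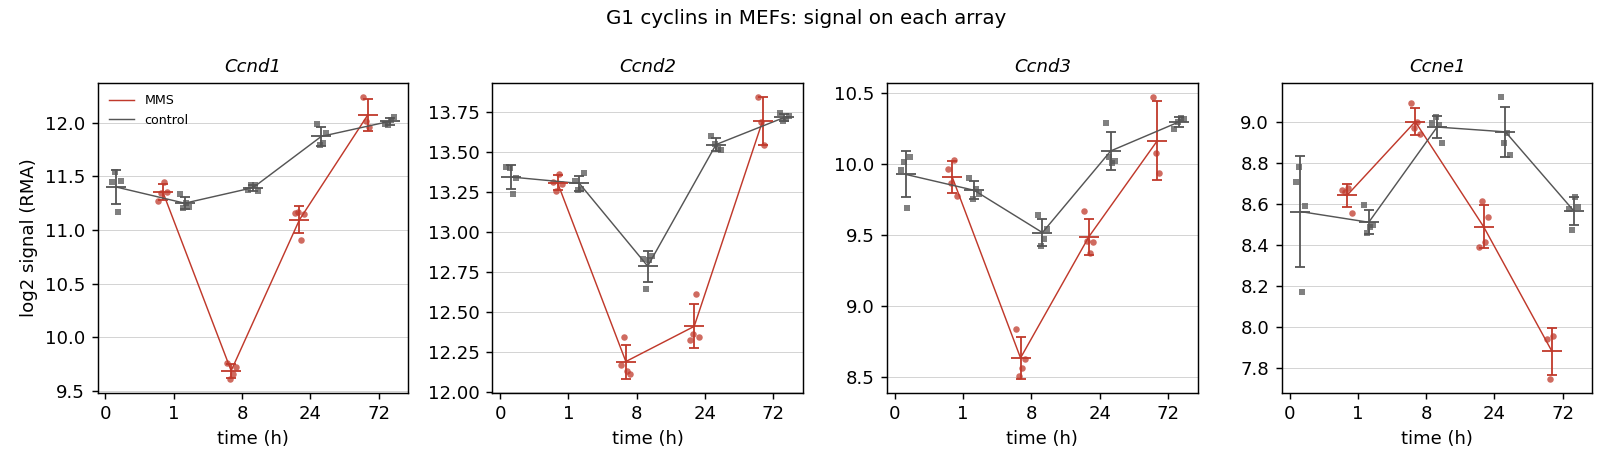
RMA log2 signal (vertical axis) of the 4 G1 cyclins on each array against time in hours (horizontal axis, evenly spaced); MMS arrays are red circles and control arrays grey squares, with group means (horizontal marks, joined by lines) and SD bars. The 3 D cyclins were lowest in MMS cells at 8 h or 8 and 24 h and were not called at 72 h, whereas Ccne1 was lowest in MMS cells at 72 h (7.75 to 7.96). Vertical scales differ between panels.

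Markers of fibroblasts were lower after MMS at 8 and 24 h, as the D cyclins were: the mean of the 14 markers was 11.10 to 11.17 on MMS 8 h arrays against 11.72 to 11.78 on control 8 h arrays, and 10.70 to 11.02 against 11.79 to 11.92 at 24 h. At 72 h the marker mean was still lower, 12.00 to 12.12 on MMS arrays against 12.45 to 12.53 on controls, while no D cyclin was called. The part of the markers in the cyclin results was not tested. In bulk RNA of this kind, fewer cells of a type and less RNA per cell cannot be told apart.

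Among the CIP/KIP genes, Cdkn1a was the 1 gene called higher after MMS at 8, 24 and 72 h alike. On the MMS arrays it read 12.66, 12.62, 12.65 and 12.67 at 1 h, against 12.44, 12.52, 12.49 and 12.45 on controls. Every MMS array was above every control already at this time, but the difference of 0.17 ± 0.07 was not called over all genes (adjusted p = 0.552). At 8 h the signal was 13.30, 13.27, 13.23 and 13.29 in MMS cells, against 12.54, 12.53, 12.40 and 12.40 in controls, which is 1.75-fold higher (0.80 ± 0.07, adjusted p = 1.24e-10). At 24 h it was 12.92, 12.74, 12.55 and 12.70 against 12.50, 12.36, 12.30 and 12.31, 1.28-fold higher (0.36 ± 0.07, adjusted p = 0.000159). At 72 h it was 13.34, 12.99 and 12.83 against 12.57, 12.55, 12.57 and 12.54, 1.41-fold higher (0.50 ± 0.08, adjusted p = 1.81e-05). The groups did not overlap at any of the 4 times. The effect was larger at 8 h than at 1 h (by 0.63, adjusted p = 1.17e-05) and smaller at 24 h than at 8 h (change of -0.44, adjusted p = 0.000857).

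The second Cdkn1a probe set gave a larger effect of MMS, and one that was called from the first hour: 0.53 ± 0.12 at 1 h (adjusted p = 0.0284), 0.93 at 8 h, 0.88 at 24 h and 0.75 at 72 h. On it, the change of the effect from 1 to 8 h was 0.40 and not called (adjusted p = 0.0526). Its effect at 24 h was close to that at 8 h (change of -0.05, adjusted p = 0.833), so the dip at 24 h was a feature of the first probe set. In controls both disagreed in sign. Against 0 h, the first probe set was 0.15, 0.14, 0.04 and 0.23 higher at 1, 8, 24 and 72 h, of which 72 h was called, whereas the second differed by -0.37, -0.28, -0.53 and -0.37, all called. The direction of Cdkn1a in the controls over time is thus unsettled on these arrays, while its rise after MMS at 8, 24 and 72 h was called on both. The files give no probe sequences, so neither probe set could be placed relative to the 2 annotated starts.

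Cdkn1b, whose product p27 restrains Cdk2 in resting cells, was lower after MMS. It read 8.25, 8.04, 8.31 and 8.35 in MMS cells at 8 h, against 8.63, 8.56, 8.57 and 8.78 in controls, and 6.38, 6.96 and 6.90 in MMS cells at 72 h, against 7.12, 7.14, 7.37 and 7.25 in controls. All MMS arrays lay below all controls at both times, 1.31-fold at 8 h (-0.39 ± 0.12, adjusted p = 0.00596) and 1.39-fold at 72 h (-0.48 ± 0.13, adjusted p = 0.00695). At 24 h the arrays overlapped and the difference of -0.27 ± 0.12 was just outside the threshold (adjusted p = 0.0657), which it passed without control 24 h replicate 3 (-0.32, adjusted p = 0.0494) or MMS 24 h replicate 1 (-0.34, adjusted p = 0.0309). The call at 72 h rested on MMS 72 h replicate 1, the lowest array, without which the difference was -0.29 (adjusted p = 0.123).

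Cdkn1c, an imprinted gene whose product p57 acts in embryonic tissues leaving the cell cycle, was lower at 72 h, when it read 8.63, 8.47 and 8.41 in MMS cells, against 9.22, 9.05, 8.96 and 9.09 in controls. The groups did not overlap, and the difference was 1.49-fold (-0.57 ± 0.11, adjusted p = 0.00021). At 8 h the MMS arrays at 7.70, 7.17, 7.24 and 7.50 overlapped the controls at 7.75, 7.99, 7.47 and 7.67, and the called difference of -0.32 ± 0.10 (adjusted p = 0.00955) was lost without control 8 h replicate 2 (-0.23, adjusted p = 0.0665) or MMS 8 h replicate 2 (-0.24, adjusted p = 0.0581). At 24 h the difference was 0.17 ± 0.10 and not called, and the changes of the effect from 8 to 24 h (0.48, adjusted p = 0.00677) and from 24 to 72 h (-0.74, adjusted p = 0.000275) were both called.

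**Figure D3:**
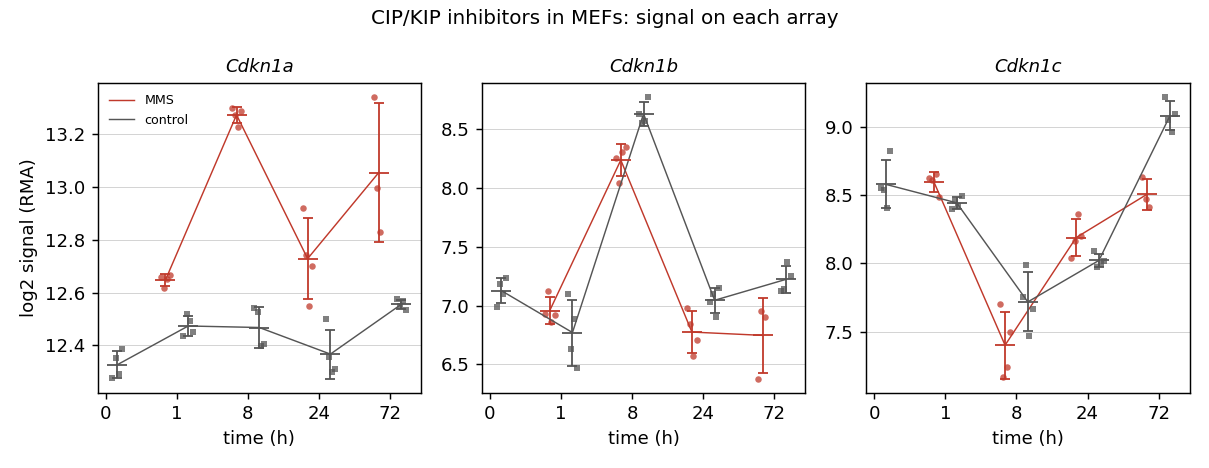
RMA log2 signal (vertical axis) of Cdkn1a, Cdkn1b and Cdkn1c on each array against time in hours (horizontal axis, evenly spaced); MMS arrays are red circles and control arrays grey squares, with group means (horizontal marks, joined by lines) and SD bars. Cdkn1a in MMS cells lay above its controls at all 4 times, and Cdkn1b peaked at 8 h in both MMS cells (8.04 to 8.35) and controls (8.56 to 8.78). Vertical scales differ between panels.

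Of the INK4 genes, Cdkn2b, which encodes p15 and is known as a target of TGF-beta signalling, rose late. At 1 and 8 h its MMS and control arrays overlapped, with differences of 0.08 and -0.02. At 72 h it read 11.23, 11.20 and 11.13 in MMS cells, against 10.53, 10.41, 10.41 and 10.37 in controls. The MMS arrays lay well above, 1.70-fold (0.76 ± 0.07, adjusted p = 8.1e-10), and the effect at 72 h was higher than at 24 h by 0.93 ± 0.09 (adjusted p = 4.95e-09). At 24 h the difference had been -0.17 ± 0.06 (adjusted p = 0.0303), with overlapping arrays (9.96, 10.15, 10.36 and 10.21 in MMS cells, against 10.39, 10.39, 10.28 and 10.30 in controls). That small drop was lost on leaving out any of 4 arrays: MMS 24 h replicate 1 (-0.10, adjusted p = 0.204) or replicate 2 (-0.16, adjusted p = 0.062), or control 24 h replicate 1 (-0.15, adjusted p = 0.0782) or replicate 2 (-0.15, adjusted p = 0.0775).

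Cdkn2c, which encodes p18, changed sign between times. It was 7.74, 7.41, 7.51 and 7.58 in MMS cells at 8 h, against 7.97, 7.83, 7.78 and 8.09 in controls. At 24 h it was 9.09, 8.88, 8.59 and 8.75 in MMS cells, against 8.45, 8.35, 8.29 and 8.19 in controls. At 72 h it was 8.11, 8.18 and 8.24 in MMS cells, against 8.48, 8.45, 8.58 and 8.71 in controls. The groups were separate at each of these times, 1.28-fold lower at 8 h (-0.36 ± 0.09, adjusted p = 0.00136), 1.42-fold higher at 24 h (0.51 ± 0.09, adjusted p = 2.58e-05) and 1.30-fold lower at 72 h (-0.38 ± 0.10, adjusted p = 0.00459). Both turns of the effect were called, from 8 to 24 h (0.86 ± 0.13, adjusted p = 2.01e-06) and from 24 to 72 h (-0.89 ± 0.13, adjusted p = 4.64e-06).

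Cdkn2a, the neighbour of Cdkn2b on chromosome 4, encodes both p16 and the p53 activator p19, and since no probe sequences were given, which of their transcripts its 1 probe set detects was not established. Its differences after MMS were 0.73, 0.20, 0.38 and 0.30 at 1, 8, 24 and 72 h, none of them called (adjusted p = 0.645, 0.658, 0.405 and 0.684). The arrays overlapped at every time. The pooled SD of Cdkn2a between replicates was 0.51, against 0.09 to 0.17 for the other 9 genes, although its group SDs at 24 h were 0.21 in MMS cells and 0.17 in controls. At 1 h the MMS arrays read 9.31, 8.62, 7.73 and 7.99, against 7.58, 7.46, 8.31 and 7.40 in controls, and the 95% interval of the difference ran from 0.02 to 1.43. At 72 h the interval ran from -0.46 to 1.06, so a 2-fold rise of Cdkn2a lay within the error of these arrays.

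**Figure D4:**
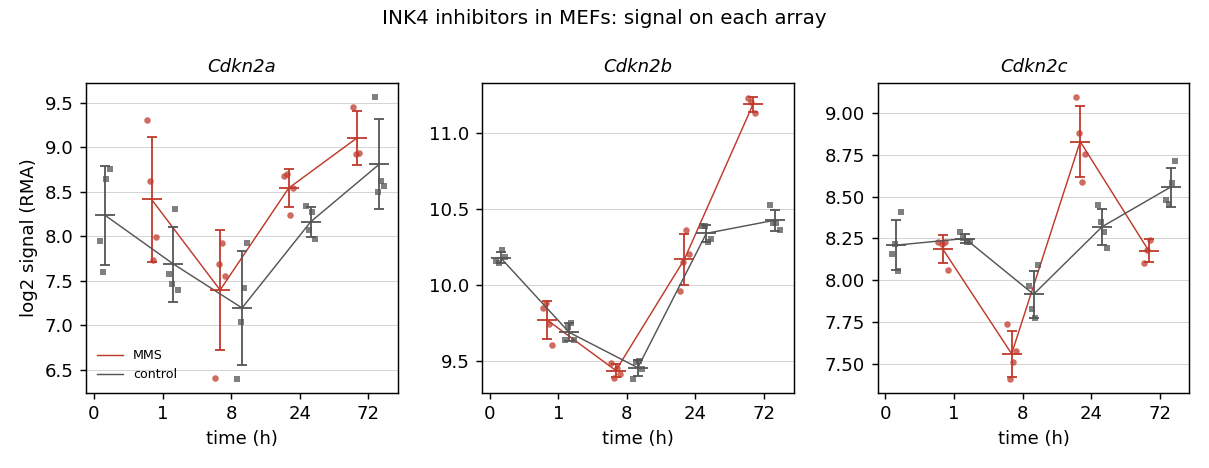
RMA log2 signal (vertical axis) of Cdkn2a, Cdkn2b and Cdkn2c on each array against time in hours (horizontal axis, evenly spaced); MMS arrays are red circles and control arrays grey squares, with group means (horizontal marks, joined by lines) and SD bars. Cdkn2b in MMS cells separated upward at 72 h (11.13 to 11.23), Cdkn2c in MMS cells was below, above and again below its controls at 8, 24 and 72 h, and Cdkn2a overlapped at all times. Vertical scales differ between panels.

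The controls themselves changed with time in culture. Against 0 h, 2 of 10 genes were called at 1 h (11.6% of all genes), 8 at 8 h (59.4%), 4 at 24 h (11.2%) and 7 at 72 h (38.1%). At 72 h all 7 called genes were higher, against 21.8% of all genes called in that direction. They were the 3 D cyclins, Cdkn1a, Cdkn1c, Cdkn2b and Cdkn2c. For Cdkn1a the second probe set was called lower instead (-0.37, adjusted p = 0.0121). Ccnd3 was not called with the mean of its probe sets (0.15, adjusted p = 0.0556), 1 of which lay below the limit (3.68 at most). Ccnd1 in controls averaged 11.87 at 24 h and 12.01 at 72 h, against 11.40 at 0 h, which is 1.39-fold and 1.53-fold higher (adjusted p = 2.43e-05 and 3.5e-08). Cdkn1c, by contrast, was below 0 h in controls at 8 h (-0.86, adjusted p = 2.13e-08) and 24 h (-0.56, adjusted p = 0.000343) and above it at 72 h (0.50, adjusted p = 0.000216), and between controls at 72 and 24 h it was 2.08-fold higher at 72 h (1.06 ± 0.10, adjusted p = 1.03e-09). Ccne1 in controls was 0.41 and 0.39 above 0 h at 8 and 24 h (adjusted p = 0.000149 and 0.00267), and lower at 72 h than at 24 h (-0.39, adjusted p = 0.000597). Without control 0 h replicate 3, an array with intestinal transcripts, its difference at 24 h was 0.26 (adjusted p = 0.0155). Between controls at 72 and 24 h, 5 of 10 genes were called, against 37.1% of all genes, and the calls for Cdkn1a, Cdkn2c and Ccnd2 among them (differences of 0.19, 0.24 and 0.17) were lost on leaving out any of 7, 5 and 7 single arrays of these groups, as was that for Ccnd2 at 24 h against 0 h (0.20) for 6 single arrays.

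The 8 h controls differed most from 0 h. Cdkn1b was 8.63, 8.56, 8.57 and 8.78 at 8 h, against 6.99, 7.18, 7.10 and 7.24 at 0 h, 2.84-fold higher (1.51 ± 0.12, adjusted p = 5.67e-12). Cdkn2b fell to 9.39, 9.50, 9.50 and 9.45 at 8 h, against 10.16, 10.15, 10.23 and 10.18 at 0 h (-0.72 ± 0.06, adjusted p = 6.43e-11), and was already lower at 1 h (-0.49, adjusted p = 1.73e-06). Both groups of 8 h arrays carried the macrophage transcripts described above, with Lyz2, a macrophage lysozyme, at 11.60 in MMS cells and 12.10 in controls at 8 h, against 5.71 to 6.81 in the other groups. Their part in the 8 h values of Cdkn1b and Cdkn2b was not tested, nor was the part of the lower macrophage signal in MMS cells at 8 h in the MMS differences at that time. Cdkn2a was also called lower at 8 h than at 0 h (-1.04, adjusted p = 0.01), a call lost without control 8 h replicate 1 (-0.78, adjusted p = 0.0615). For Ccnd1 and Ccnd2, probe sets of the same gene disagreed in sign between controls at 8 and 0 h (-0.41 to 0.36 and -0.56 to 0.51), so no direction is given for them there. The call for Cdkn1b at 1 h against 0 h (-0.36, adjusted p = 0.0484) was at the threshold and was lost on leaving out any of 6 single arrays, for example to -0.25 without control 1 h replicate 4 (adjusted p = 0.215).

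The genes around these 10 were described by lists, whose counts are to be read beside the shares of all genes called higher and lower (28.7% and 25% at 8 h, 25% and 19.4% at 24 h, 10.1% and 10.4% at 72 h). The 10 of 17, 7 of 13 and 9 of 18 genes called at 8 h in the G1, G1 to S and S phase lists below lay near the 53.7% of all genes. Of 17 tested kinases, pocket proteins and E2F factors of G1, 1 was higher and 9 lower at 8 h. By 24 h the numbers were 7 higher and 3 lower, and by 72 h 2 higher and 7 lower. Cdk6, the partner kinase of the D cyclins, was 3.26-fold lower at 8 h and 2.58-fold lower at 24 h. Ccne2, the second cyclin E, was 3.38-fold and 1.81-fold higher at 8 and 24 h, so that both cyclin E genes were called in opposite directions at 24 h. Rb1, the retinoblastoma protein itself, was 2.15-fold higher at 24 h. E2f8, a repressor of E2F targets, was 2.10-fold lower at 8 h, and Cdkn2d, the remaining INK4 gene, was 1.23-fold lower at 24 h. Of 13 regulators of the passage from G1 to S, 3 were higher and 4 lower at 8 h. By 24 h the numbers were 5 higher and 1 lower, and by 72 h 1 higher and 3 lower. Cdk7, the catalytic subunit of the kinase that activates other CDKs, was 1.40-fold higher at 8 h, and its partner Ccnh was 1.40-fold higher at 24 h. Cdc25a, a phosphatase that activates Cdk2, was 1.26-fold higher at 8 h, and Dtl, the substrate receptor of a ligase that degrades p21 in S phase, was 1.72-fold higher at 24 h. Ccna2, the cyclin of S phase and G2, was 2.43-fold lower at 8 h, as was Fbxo31 (1.34-fold), a ligase subunit for cyclin D1, and Cables1, a CDK-binding protein, was 1.78-fold lower at 24 h.

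Downstream and upstream lists showed the following counts. Of 22 p53 pathway genes tested, 3, 18, 15 and 13 were higher at 1, 8, 24 and 72 h, and 2 were lower at 72 h. At 1 h, 0.361% of all genes were called higher. Gadd45a and Trp53inp1 were 5.80-fold and 3.15-fold higher at 8 h, and Perp and Mdm2, the ligase that degrades p53, were 4.28-fold and 2.57-fold higher at 24 h. Of 18 S phase genes known as E2F targets, 5 were higher and 4 lower at 8 h, 14 were higher and none lower at 24 h, and at 72 h 16 were lower and 1 higher. Cdt1, which helps to load the replicative helicase, and Mcm3, a subunit of that helicase, were 1.67-fold and 1.34-fold higher at 8 h. Tk1, a thymidine kinase, and Pola1, a subunit of DNA polymerase alpha, were 3.81-fold and 2.73-fold lower at that time. At 24 h Rrm2, a subunit of ribonucleotide reductase, was 2.00-fold and Cdt1 1.86-fold higher. All 14 mitosis genes tested were lower at 8 h (median -1.17, beside 0.06 over all genes) and at 72 h (median -1.43, beside -0.01), and 4 were higher and none lower at 24 h. Kif11, a spindle motor, and Bub1, a checkpoint kinase, were 3.16-fold and 2.99-fold lower at 8 h, and Aurkb and Top2a were 1.44-fold and 1.34-fold higher at 24 h. In controls the same 14 mitosis genes were all higher at 24 h than at 0 h and all lower at 72 h than at 24 h, and so were all 18 S phase genes, against 9.12% of all genes called higher in the first of these comparisons and 18.8% called lower in the second. The D cyclins and the mitosis genes thus had in common the drop at 8 h after MMS, and at 72 h the mitosis genes and Ccne1 were lower while no D cyclin was called.

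**Figure D5:**
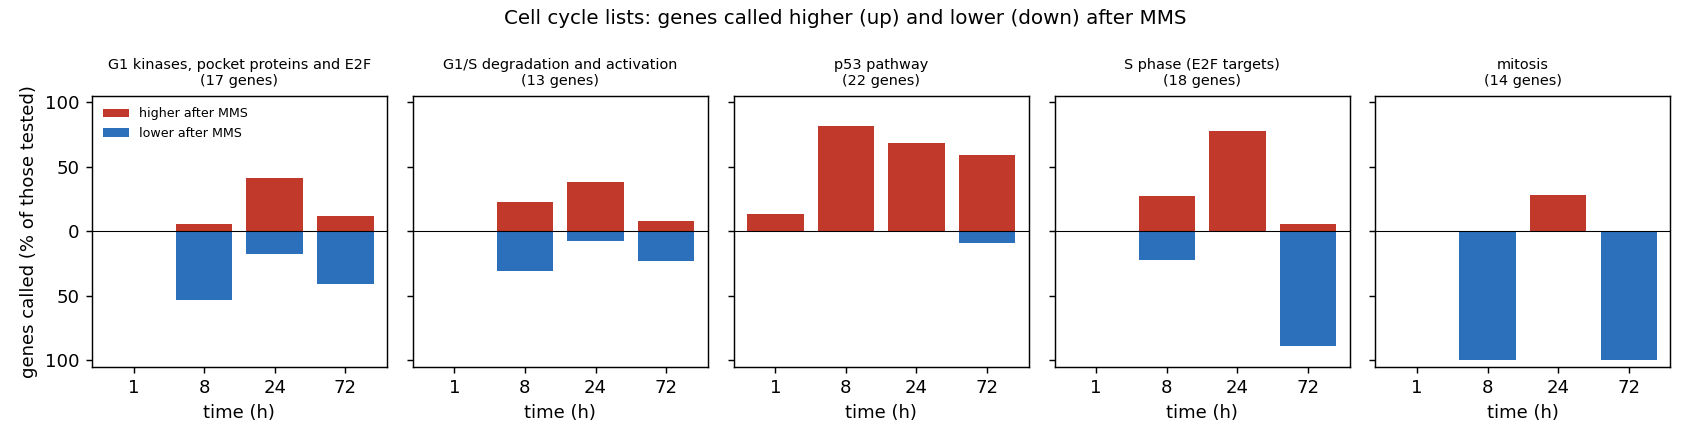
Share of the genes of 5 lists (vertical axis, percent of those tested) called higher (red, upward) and lower (blue, downward) after MMS against control at 1, 8, 24 and 72 h (horizontal axis). The p53 pathway bars point up, with 18 of 22 genes at 8 h, except for 2 genes called lower at 72 h, and all 14 mitosis genes point down at 8 and 72 h but not at 24 h.

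Over the 9 group means, the genes whose signal followed each of the 10 most closely were found by Pearson correlation, given as a description since all means come from the same arrays and the 8 h groups weigh heavily. Ccnd1 was followed by Fam189b (r = 0.99), Nr2f1 and Usp48, Ccnd2 by Nacc2 (0.99), Cd99l2 and Fam114a1, Ccnd3 by Msi2 (0.99), Scd2 and Zcchc24, and Ccne1 by Gjc1, Anp32e and Mtbp (0.94 each). Cdkn1a was followed by Fchsd1 (0.98), Smox and B230307C23Rik, Cdkn1b by Fam161a (0.99), Krt88 and Gabrd, and Cdkn1c by Fcgrt (0.95), Slc37a3 and Gyg. Cdkn2c had Cdk4, the kinase its product inhibits, among its 3 closest genes (0.98), with Wdr83 (0.99) and Cntrl. Cdkn2b was followed by Arntl2 (0.96), Gramd1c and Bmp1, and Cdkn2a by Papolg (0.97), Mapk8ip3 and 9530068E07Rik.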

How the data were processed

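RNA from 35 cultures of primary MEFs was hybridised to Affymetrix mouse arrays with 45101 probe sets. The deposited values are log2 signals that the authors made with RMA (version not given in the sources used here), which corrects background, equalises the arrays and summarises probes, so a shift common to all genes would not be seen; array medians were 4.98 to 5.09. The number of arrays, not read depth, limits the precision. Probe sets with 1 gene symbol (34958, platform annotation) were used, the one with the highest mean per gene; 932 with several symbols and 9211 with none were left out. Genes reaching the 40th percentile (log2 4.40) in 1 group mean were tested in limma 3.58.1 (R 4.3.3), with 26 residual degrees of freedom and Benjamini-Hochberg adjustment over 14135 genes within each of 12 comparisons. The 10 genes, the lists and the tests were chosen with earlier results of these data known. Named list genes were the 2 largest called changes per direction at 8 and 24 h, and the 3 most correlated genes per gene. On simulated arrays of the 8 h comparison (14135 genes, 200 of them changed) the fit found 79% of 1.5-fold and 97% of 2-fold changes, with 4.86% false calls. In the real 8 h comparison 53.7% of genes were called, so these rates need not hold there. Filters, normalisation, array weights, a replicate block, other probe sets, and leaving out arrays were tried as alternatives.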

Additional observations from a re-analysis of the deposited data

Results flagged for a closer look

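Single arrays stood apart from the other 3 of their group, by Dixon's criterion at 95%, in 7 of 80 groups of 4 looked at, where chance alone flags about 1 in 20. They were Cdkn2a in control 72 h replicate 1 (9.56, others 8.49 to 8.61), Cdkn2c in MMS 1 h replicate 4 (8.06, others 8.22 to 8.23), Ccnd1 in MMS 24 h replicate 3 (10.91, others 11.15 to 11.17), Ccnd2 in the same array (12.61, others 12.32 to 12.36), Ccnd2 in control 8 h replicate 2 (12.64, others 12.82 to 12.85), Ccnd3 in control 24 h replicate 1 (10.29, others 10.00 to 10.05) and Ccne1 in MMS 1 h replicate 4 (8.56, others 8.66 to 8.68). MMS 24 h replicate 3 is an array with intestinal transcripts. On it Ccnd1 was low and Ccnd2 high, and the part of those transcripts was not tested.

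The effect of MMS differed between neighbouring times, by a called interaction in limma, in 18 cases. From 1 to 8 h, against 41.3% of all genes, it changed for Ccnd1 (-1.81), Ccnd3 (-0.98), Ccnd2 (-0.60), Cdkn1b (-0.58), Cdkn1c (-0.47) and Cdkn1a (0.63). From 8 to 24 h, against 45.6% of all genes, it changed for Ccnd1 (0.93), Cdkn2c (0.86), Cdkn1c (0.48), Ccnd2 (-0.54), Ccne1 (-0.49) and Cdkn1a (-0.44). From 24 to 72 h, against 29% of all genes, it changed for Ccnd2 (1.11), Cdkn2b (0.93), Ccnd1 (0.84), Ccnd3 (0.47), Cdkn2c (-0.89) and Cdkn1c (-0.74). The last change of Ccnd3 was 0.32 and not called without MMS 72 h replicate 1 (adjusted p = 0.0737). On the second Cdkn1a probe set the changes from 1 to 8 h and from 8 to 24 h were 0.40 and -0.05, neither of them called (adjusted p = 0.0526 and 0.833).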

How the results depend on the processing

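Among the 10 genes, alternatives other than leaving out 1 array or using another probe set kept the side of the threshold in 1094 cases. Of the rest, 31 gained and 32 lost a call, and 3 turned direction. A turn was counted only where 1 or both of the values compared were called, so those kept include turns between uncalled values. An example is Ccnd1 at 1 h after MMS, 0.10 in the main fit and -0.05 on another probe set. Leaving out 1 array kept 1129, with 11 gained, 40 lost and none turned. Using another probe set of the same gene kept 103, with 2 gained, 15 lost and 12 turned. The number called at 1 h after MMS was 1 (Cdkn1a) with the mean of all probe sets. In controls at 1 against 0 h it was 1 with no filter, median-centred or quantile-normalised arrays, only both groups in the model, the replicate block or no 8 h arrays, and 4 with array weights. In controls at 24 against 0 h it was 2 with only both groups in the model, and at 72 against 24 h it was 2 with no filter or median-centred arrays. In the latter comparison Ccnd1 and Ccnd3 gained a call with array weights (adjusted p = 0.00427 and 0.00197). They also did so without the 4 arrays with intestinal transcripts (adjusted p = 0.0412 and 0.0473). Leaving out 1 array gave 0 to 0, 6 to 7, 6 to 8 and 6 to 6 called genes at 1, 8, 24 and 72 h after MMS, and in controls 1 to 2, 7 to 8, 3 to 4 and 7 to 7 against 0 h and 2 to 6 for 72 against 24 h. For the changes of the effect it gave 6 to 7, 6 to 7 and 5 to 6.

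With only both groups in the model, the calls of Cdkn1c at 8 h and Cdkn2b at 24 h were lost (adjusted p = 0.0843 and 0.147), and Cdkn1b and Cdkn2a were called at 24 h (adjusted p = 0.0488 and 0.0312). The Cdkn1b difference at 72 h was -0.16 and not called with the mean of its probe sets. That mean includes a probe set below the limit in every group (4.17 at most). Array weights called Ccnd3 at 72 h (-0.23, adjusted p = 0.0029). Leaving out the 4 arrays with intestinal transcripts changed no call of MMS against control among the 10 genes. Arrays with a lesser intestinal signal, such as control 1 h replicate 3, stayed in that fit. In controls, Ccnd1 at 1 against 0 h was called (-0.23, adjusted p = 0.0258) without control 0 h replicate 3, one of these arrays, and Ccnd3 at 72 against 24 h (0.27, adjusted p = 0.0333) without control 24 h replicate 1. Where 1 or both of the values compared were called, directions turned only in controls and in 1 change of effect. With the second Cdkn1a probe set the differences from 0 h were -0.37, -0.28, -0.53 and -0.37 at 1, 8, 24 and 72 h, and with the mean of both -0.24 and -0.071 at 24 and 72 h. Other probe sets gave 0.36 for Ccnd1, 0.51 and 0.31 for Ccnd2 and 0.17 for Ccnd3 at 8 against 0 h, -0.051 for Ccnd2 at 72 against 0 h, and -0.0915 and -0.0914 for Ccnd2 at 72 against 24 h. A low Ccnd3 probe set gave 0.0485 for the change of effect from 1 to 8 h, and array weights gave -0.13 for Ccne1 at 72 against 0 h. The causes were not tested.

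Replicate numbers shared by MMS and control arrays were not taken to pair them, since not every correlation of same-numbered deviations was over 0.1 (0.09 to 0.31 at 1 h, -0.04 to 0.11 at 8 h, -0.26 to 0.16 at 24 h and 0.02 to 0.18 at 72 h). Of the MMS arrays, 3 of 4, 3 of 4, 1 of 4 and 1 of 3 correlated best with the control of their own number at 1, 8, 24 and 72 h, a hint from the data, not the design. With the replicate block, 0 and 7 genes were called at 1 and 8 h after MMS, no call of MMS against control changed, and in controls Cdkn1b at 1 against 0 h (adjusted p = 0.0634) and Ccnd2 at 24 against 0 h (0.0524) and 72 against 24 h (0.0523) were lost, while the change of the Ccnd3 effect from 8 to 24 h (0.0418) and Ccnd3 at 72 against 24 h (0.0413) were gained.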

Other observations

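Upstream regulators of the 10 genes, a list of 18 genes of mitogen and TGF-beta signalling, were described in the same fit. After MMS, 4 of them were called higher against 8 lower at 8 h. By 24 h the numbers were 8 higher and 2 lower, and by 72 h 6 higher and 2 lower, with medians of -0.10, 0.19 and 0.02 beside 0.06, 0.01 and -0.01 over all genes. The 12, 10 and 8 called genes of 18 stand beside 53.7%, 44.5% and 20.5% of all genes called. Foxo3, a factor known to act on Cdkn1b, was 1.72-fold higher at 8 h, when Cdkn1b was lower, and Mycn was 1.39-fold higher. Klf4 and Id2 were 2.89-fold and 2.01-fold lower at 8 h. At 24 h Id2 and Id1, repressors of differentiation genes, were 3.25-fold and 1.84-fold higher, so Id2 was on opposite sides of its control at the 2 times. Foxo4 and Bmi1, a repressor of Cdkn2a, were 1.31-fold and 1.22-fold lower at 24 h.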
